A study of Mus musculus with 32 samples.

Results

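The nuclear-encoded genes of oxidative phosphorylation were described in 28 single-cell and 4 pooled libraries from the mouse forebrain. Members were the rows of the FPKM table whose symbol begins with Ndufa, Ndufb, Ndufc, Ndufs or Ndufv and a digit, is Sdha, Sdhb, Sdhc or Sdhd, or begins with Uqcr, with Cox and a digit from 4 to 8, or with Atp5. Names with a -ps or rt suffix were left out. This gave 84 genes of 38738 symbols, 37 for complex I, 4 for complex II, 8 for complex III, 17 for complex IV and 18 for complex V. All libraries came from the subventricular zone, a site of postnatal neurogenesis, at postnatal day 21. The single-cell libraries are called S1 to S28 and the libraries of 10 cells each P1 to P4. The labels name no strain, genotype, treatment, sort or animal for either group, so the 28 cells stood as 1 sample and no test between cells or between cells and pools was made. Values are FPKM, fragments per kilobase of transcript scaled to the mapped fragments of the library, and the depth behind them is unknown. A gene is called found in a library at FPKM of at least 1, and an exact 0 is given as listed at 0, because the table also lists genes used by every cell at 0.

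Oxidative phosphorylation takes place in the inner mitochondrial membrane. Complexes I, III and IV pump protons as electrons pass from NADH to oxygen, complex II feeds in electrons from succinate, and complex V, the ATP synthase, lets protons flow back to make ATP. Complexes I, III, IV and V also hold subunits encoded by mitochondrial DNA, whereas all subunits of complex II are nuclear-encoded. In the subventricular zone, neural stem cells are generally regarded as more glycolytic than their progeny, and ependymal and choroid plexus cells are rich in mitochondria.

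The cells differed in type, and marker lists were read in each. Endothelial markers led in 8 cells (S1, S2, S3, S6, S7, S8, S16 and S17), oligodendrocyte markers in 3 (S4, S12 and S13), ependymal markers in 3 (S9, S10 and S15), astrocyte markers in 2 (S11 and S14) and choroid plexus markers in 1 (S5). Microglia markers led in S18 to S20, cycling markers in S21 and neuroblast markers in 7 cells (S22 to S28). These names are read from markers only, and in some cells a second list was also high. By mean log2(FPKM + 1), the astrocyte list had 4.72, 2.56 and 4.18 in S9, S10 and S15, against 6.28, 3.02 and 6.02 for the ependymal list. The microglia list had 5.51, 5.07 and 3.29 in S3, S21 and S22, against 8.57, 7.04 and 5.95 for their leading lists. Earlier work on these data set 2 sets of cells apart, S18 to S22 and S23 to S28, in which genes abundant in 1 cell of a set recur at a low level in the others. In S18 to S22 processed pseudogenes also took only 0.0826% to 0.268% of FPKM, against 5.0% to 14.5% in the 17 cells outside both sets. The main results that rest on these 11 cells are also given without them.

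Of the 84 members, 81 were found in at least 1 library and 80 in at least 1 cell. A single cell had a median of 47.5 members found, from 19 in S1 to 79 in S5, and the pools had 80, 77, 74 and 78, or 77.25 ± 2.5 (SD, n = 4). S5 lay within the range of the pools, and the other 27 cells fell below all 4 of them. The 17 cells outside both sets had a median of 61 members, S18 to S22 had 37 (34 to 47), and S23 to S28 also had 37 (24 to 51). With a limit that put values under 2% of a gene's highest value in a set at 0, the median over cells was 41. This limit also lowered the number of cells for many of the genes named below. Over the 84 members and 28 cells, 28.1% of the values were listed at 0, 13.7% lay above 0 and under 1 FPKM, and 31.0% were at least 100 FPKM. In the pools 5.95% were listed at 0 and 66.4% were at least 100 FPKM. Among all 19781 genes found in a library, 50.7% of the values in cells were listed at 0 and 5.89% were at least 100 FPKM. The members were more often high than genes at large, and within a cell many lay near 0 beside others above 100 FPKM.

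**Figure D1:**
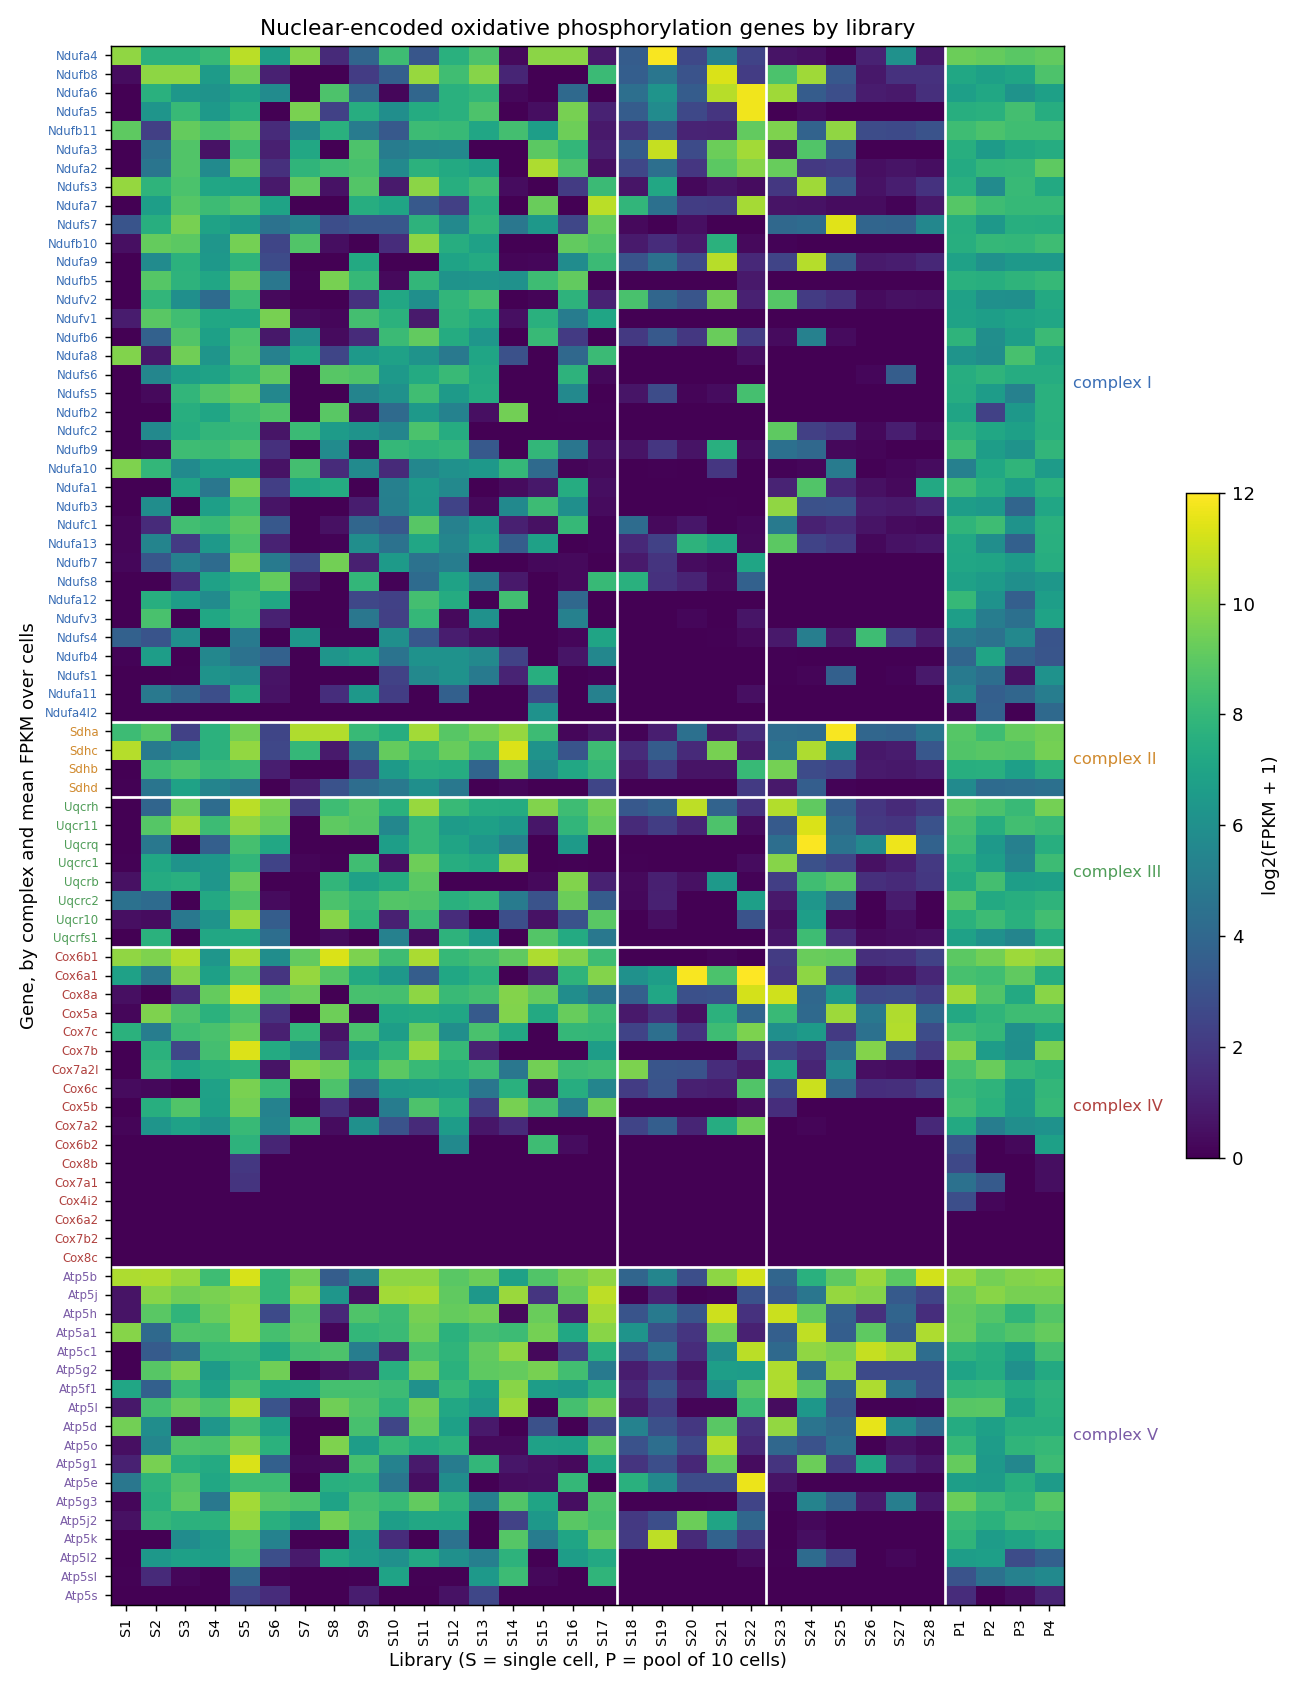
Heat map of log2(FPKM + 1) for 83 of the 84 members (rows, by complex and by mean FPKM over cells) in S1 to S28 and P1 to P4 (columns). The pools are filled for nearly all rows, while each cell shows a patchwork, and S5 is the fullest single cell.

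The number of members found followed the number of all genes found. Cells had a median of 4986 genes found (2107 to 10169), and the pools had 12438, 12869, 10477 and 11969. Across the 28 cells, Pearson's r between genes found and members found was 0.87 and Spearman's rho was 0.87, and over the 17 cells outside the sets they were 0.89 and 0.91. Members are part of the gene count, and both share the depth of the library, so these values are a description. S1 and S5 give the extremes in both measures outside the sets, with 3061 and 10169 genes found.

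**Figure D2:**
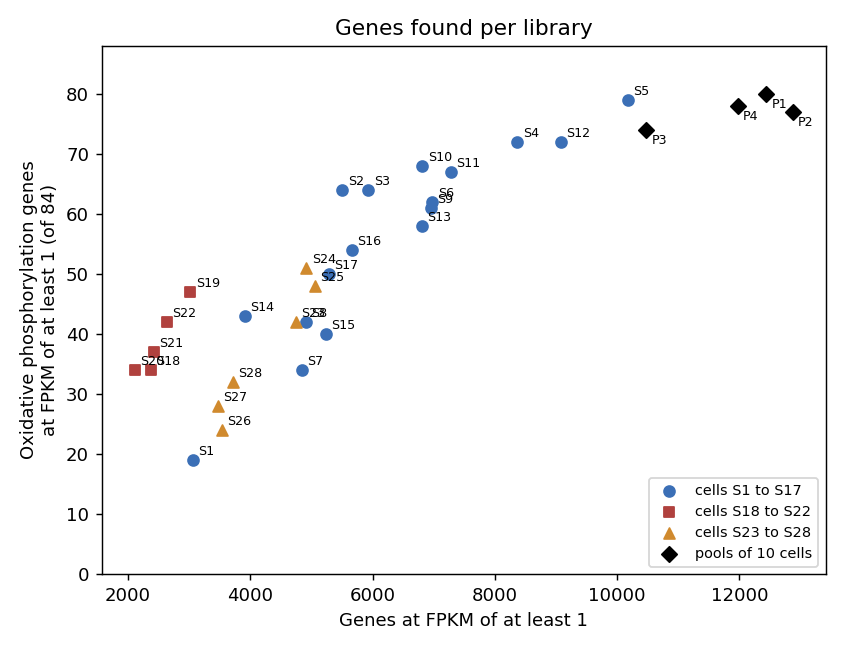
Number of members found (of 84) against the number of all genes found, 1 point per library, with cells outside the sets, S18 to S22, S23 to S28 and the pools marked apart. The pools sit at the upper right at 74 to 80 members, and S5 with 79 lies among them.

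With every member counted, complex V and complex II were the most widely found. Over members and cells, 70.8% of the complex V values and 72.3% of the complex II values were at least 1 FPKM, against 63.8% for complex III, 54.3% for complex I and 47.1% for complex IV. In the 17 cells outside the sets the shares were 75.8% for complex V, 82.4% for complex II, 70.6% for complex III, 66.5% for complex I and 50.9% for complex IV. The median member had a mean over cells of 250 FPKM in complex II, 231 in complex V, 137 in complex IV, 135 in complex III and 101 in complex I. Within the members, the mean level and the number of cells in which a gene was found had a Spearman correlation of 0.90 across genes, which are not independent. Complex IV, which holds tissue-restricted isoforms beside ubiquitous subunits, ran from genes found in 0 cells to Cox7c in 26. Cox4i2, Cox6a2, Cox7b2 and Cox8c were found in 0 cells, Cox7a1 and Cox8b in 1 and Cox6b2 in 4. The other complex IV members were found in 15 to 26 cells. The place of complex IV in the order of the complexes, by share and by level, therefore rests on counting these rarely found isoforms.

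Of the values over cells, 85% were found for the catalytic head of the ATP synthase and 87.5% for its peripheral stalk. Atp5b, the catalytic beta subunit (chromosome 10, 128083273 to 128090391 of GRCm38), was found in 28 of 28 cells (exact Clopper-Pearson 95% interval 87.7% to 100%, counting error only). It had 6.34 FPKM in the lowest cell, S20, a median of 575 and 2465 in the highest cell, S5, and 1138, 716, 870 and 920 FPKM in P1 to P4. Once values in a set that lay below 2% of the highest cell of that set were counted as 0, Atp5b was found in 24 cells. All 4 pools lay above the median of the cells, and the cells spread far more widely than the pools. Atp5f1, subunit b of the peripheral stalk that holds the head in place (chromosome 3, 105942698 to 105960099), was the other member found in all 28 cells. Its values ran from 1.15 FPKM in S20 through a median of 136 to 1479 in S26, with 249, 264, 160 and 218 in the pools, and with the same limit it was found in 22 cells. Atp5a1, the alpha subunit that forms the head with Atp5b, was found in 27 cells (21 with that limit) and lay at 0.145 FPKM in S8. Atp5h, another stalk subunit, was found in 26 cells (18 with that limit) with a median of 266 FPKM and 2172 in S21. Atp5j, stalk subunit F6, was found in 23 cells with a median of 165 FPKM and 1794 in S17, and had 647, 948, 742 and 741 in the pools.

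Even so, not every cell listed each subunit of the head. All 5 of its genes (Atp5a1, Atp5b, Atp5c1, Atp5d and Atp5e) were found in 12 cells, S18 to S22 among them. All 4 peripheral stalk genes were found in 17 cells. With the 2% limit each of S18 to S22 had a head gene that was no longer found. Of the cells with all stalk genes, S19, S22, S23 and S25 each had a stalk gene no longer found. Atp5d, the delta subunit of the central stalk, was found in 22 cells but had a median of 19.9 FPKM and 2965 in S26. Atp5e, the epsilon subunit, was found in 16, with 3171 in S22. Atp5s, a coupling factor, was found in 3 cells (S5, S6 and S13) at 1.88 to 4.79 FPKM. Atp5sl, counted in complex V by its symbol only, was found in 6 cells, with 303 FPKM in S14.

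The membrane c ring of the ATP synthase is made from 1 mature protein that Atp5g1, Atp5g2 and Atp5g3 encode behind different import sequences. Their coding sequences shared 84.3% identity over 249 aligned bases (Atp5g1 and Atp5g2) and 78.7% over 267 (Atp5g1 and Atp5g3). The stretches upstream of the RefSeq starts of these genes are shown, and their part in which of the genes was highest was not tested. They are the 250 bases before the start, on the minus strand of GRCm38.p6, for Atp5g1 at chr11:96075632-96075881, Atp5g2 at chr15:102671048-102671297 and Atp5g3 at chr2:73911327-73911576. The Atp5g2 stretch does not adjoin the locus of the gene in the FPKM table, which ends at 102667749. That of Atp5g1 overlaps its locus, which ends at 96075670. Capitals mark a full match to the palindromic binding motif of NRF1, a regulator of respiratory genes, found in the stretch of Atp5g2 only, 42 bases before the start.
Atp5g1: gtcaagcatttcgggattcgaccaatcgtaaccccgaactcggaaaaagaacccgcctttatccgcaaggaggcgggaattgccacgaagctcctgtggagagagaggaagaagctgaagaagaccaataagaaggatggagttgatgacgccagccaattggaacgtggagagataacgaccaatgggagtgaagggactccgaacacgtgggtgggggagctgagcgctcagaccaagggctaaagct
Atp5g2: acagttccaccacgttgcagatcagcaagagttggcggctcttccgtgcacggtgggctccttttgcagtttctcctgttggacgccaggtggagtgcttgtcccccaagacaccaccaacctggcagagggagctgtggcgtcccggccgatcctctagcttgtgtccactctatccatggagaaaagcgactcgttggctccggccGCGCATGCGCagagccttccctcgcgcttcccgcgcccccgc
Atp5g3: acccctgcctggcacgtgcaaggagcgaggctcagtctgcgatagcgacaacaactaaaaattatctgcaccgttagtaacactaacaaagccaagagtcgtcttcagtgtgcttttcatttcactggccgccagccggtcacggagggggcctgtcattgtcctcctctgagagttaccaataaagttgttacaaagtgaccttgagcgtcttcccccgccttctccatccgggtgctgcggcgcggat

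Which c subunit gene was highest differed from cell to cell. Atp5g1 led in 11 cells, Atp5g2 in 11 and Atp5g3 in 6, while Atp5g3 led in all 4 pools. Some leads were low values: Atp5g1 led at 1.14 FPKM in S1, 2.52 in S18, 6.32 in S19 and 1.53 in S20. Atp5g2 led at 5.57 FPKM in S28. With the 2% limit the leading gene was no longer found in S18, S19, S20 and S28. Only 1 of the genes was found in 7 cells, among them S1, S18, S20 and S28, 2 in 9 and all 3 in 12. In 8 cells the leading gene held at least 90% of the sum, for example Atp5g3 in S7 (385 FPKM, with Atp5g1 at 0.170 and Atp5g2 listed at 0), Atp5g2 in S16 (331 FPKM, with Atp5g1 at 0.243 and Atp5g3 at 0.375) and Atp5g1 in S26 (146 FPKM, with Atp5g2 at 5.39 and Atp5g3 at 0.802). S5 had 2581 FPKM of Atp5g1, 239 of Atp5g2 and 1276 of Atp5g3. In the pools Atp5g1 had 575, 89.9, 45.7 and 297 FPKM, Atp5g2 125, 165, 64.5 and 154, and Atp5g3 631, 307, 222 and 451. Of the summed c subunit FPKM, Atp5g2 held 42.5% over cells and 16.3% over pools, and Atp5g3 27.8% and 51.5%. Atp5g1 and Atp5g2 have 4 and 3 pseudogene copies in the table, so their FPKM is uncertain. The copies were up to 99.8% and 100% identical to the coding sequence over the part that aligned. No such copy of Atp5g3 was found.

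**Figure D3:**
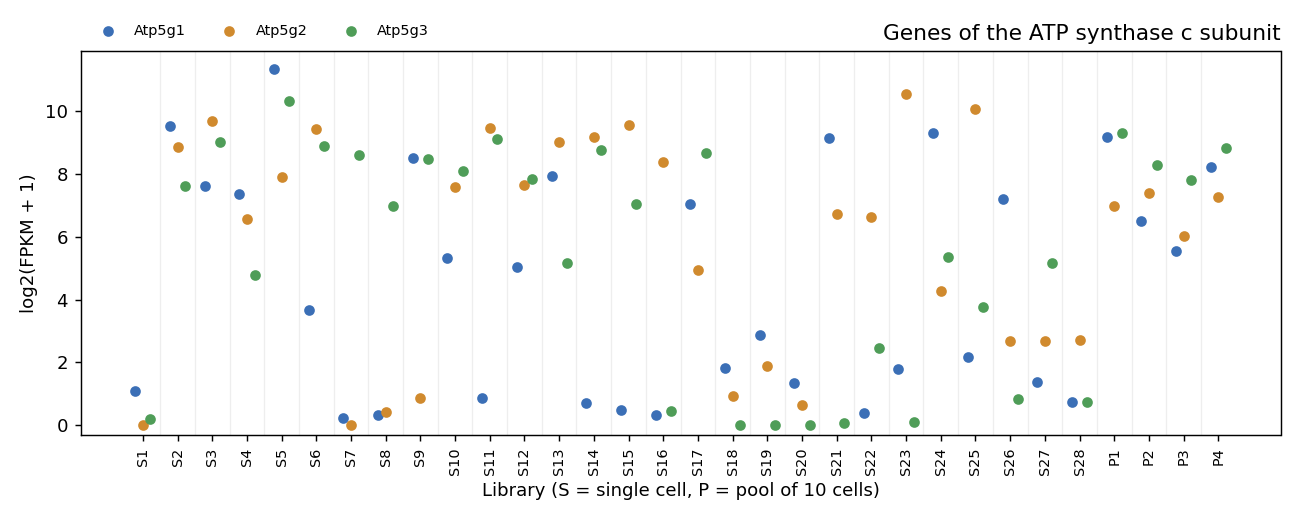
log2(FPKM + 1) of Atp5g1, Atp5g2 and Atp5g3 in each library. Single cells such as S7, S8 and S16 show 1 gene high and the others near 0, and in all 4 pools all 3 genes are present with Atp5g3 on top.

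Succinate dehydrogenase, complex II, oxidises succinate and has 4 subunits. Sdha, its flavoprotein, was found in 24 cells, with a median of 102 FPKM and 3728 in S25. Sdhc, a membrane anchor, was also found in 24, from 0.737 FPKM in S26 through a median of 53.5 to 2608 in S14. Sdhb, the iron-sulphur subunit, was found in 20 cells (median 9.76, highest 726 in S23). Sdhd, the second anchor, was the least found, in 13 cells with 118 FPKM in S3, and had 52.2, 17.2, 18.3 and 20.4 FPKM in the pools. All 4 genes were found together in 9 cells and in all 4 pools.

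Complex I had the largest number of members and none that was found in all 28 cells. Its members were found in 1 to 27 cells, with a median of 15. Ndufs7, which carries an iron-sulphur cluster (chromosome 10, 80249121 to 80256794), was found in all 17 cells outside the sets, from 4.91 FPKM in S16 to 745 in S3, and in none of S18 to S22. Ndufs1, the largest core subunit, was found in 9 cells (95% interval 15.9% to 52.4%, counting error only) with 182 FPKM in S15. It had 28.9, 18.9, 0.484 and 69.5 FPKM in the pools. Ndufb11, an accessory subunit, was found in 27 cells, with 0.753 FPKM in S17 the only value below 1.

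Ndufa4, first described in complex I and now placed in complex IV, had the highest mean of the Nduf genes, at 400 FPKM over cells. It was found in 22 cells, with a median of 53.2 FPKM and 3772 in S19, and had 633, 565, 489 and 551 in the pools. The mean rests much on S19, since the next cell, S5, had 1703. Its paralog Ndufa4l2, known from hypoxic cells, was found in 1 cell, the ependymal-led S15, at 68.4 FPKM, and had 0.160, 12.2, 0 and 16 in P1 to P4. Ndufb8, Ndufa6 and Ndufa5, all accessory subunits, were the next most abundant by mean, at 346, 282 and 238 FPKM, but their medians were 9.95, 15.6 and 7.58. Ndufa6 had 3440 FPKM in S22, 1659 in S21 and 1263 in S23, and at most 405 in any other cell, so the 3 high cells were all in the sets. Ndufa5 reached 3476 in S22. Ndufa9, another accessory subunit, was found in 19 cells, with 1664 FPKM in S21 and 1637 in S24 and at most 291 in any other cell.

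In complex III, which passes electrons to cytochrome c, Uqcrh, the hinge protein, was found in 27 cells and listed at 0 in S1. Its values had a median of 186 FPKM and reached 1779 in S20, with 486, 393, 278 and 712 in the pools. Uqcr11 was found in 24 cells (median 92.5 FPKM). Uqcrc1 and Uqcrc2, the core proteins, were found in 14 and 18 cells, and Uqcrfs1, the Rieske iron-sulphur protein, in 12, with 442 FPKM in S15. The latter 3 were found together in 7 cells and none of them in 6 (S7, S18, S20, S21, S26 and S27). All 4 pools had all 3. Uqcrq had 3887 FPKM in S24 and 3330 in S27 with a median of 16 over all cells.

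In complex IV, cytochrome c oxidase, Cox6b1 (chromosome 7, 30616974 to 30626151) was the most abundant member, and the contrast between cells in and out of the first set was plain. It was found in all 17 cells outside the sets, from 58.1 FPKM in S6 through a median of 796 to 2528 in S8. In S18 to S22 it was listed at 0 in 4 cells and at 0.110 in S21, and in S23 to S28 it ran from 2.04 to 610. The pools had 501, 688, 1192 and 949 FPKM. Cox6a1, by contrast, had its highest values in the first set, with 4760 FPKM in S22 and 3774 in S20, and a median of 114.5 over cells. Cox8a reached 2826 FPKM in S5 and Cox7b 2633 in the same cell. Cox5a was found in 23 cells, with a median of 147 FPKM and 1538 in S27.

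Several complex IV subunits have paralogs known from muscle, lung or testis, and most of these were rarely found. The liver-type Cox6a1, Cox7a2 and Cox8a were found in 25, 17 and 25 cells (21, 14 and 18 with the 2% limit). Cox7a2l, a related protein known from supercomplexes, was found in 22 cells, with a median of 156 FPKM and 880 in S7. Their heart and muscle counterparts Cox6a2, Cox7a1 and Cox8b were found in 0, 1 and 1 cells, and the 1 cell was S5 for both Cox7a1 (2.44 FPKM) and Cox8b (2.83). Cox7a1 had 21.2, 9.59, 0 and 0.363 FPKM in the pools, and Cox8b 4.97, 0, 0 and 0.353. Cox4i2, an isoform known from lung and from pericytes, was listed at 0 in all 28 cells and had 6.26 FPKM in P1 and 0.147 in P2. Cox4i1, the other gene of its isoform group, was not among the members, so Cox4i2 could not be set beside it. The pericyte and smooth muscle list had a mean log2(FPKM + 1) of 3.10 and 2.75 in P1 and P2, and 0.325 and 1.76 in P3 and P4. Its part in these values was not tested. The testis-type Cox7b2 and Cox8c and the muscle-type Cox6a2 were listed at 0 in all 32 libraries. A count of 0 of 28 cells has an exact Clopper-Pearson 95% interval that reaches 12.3%, for counting error only, and a listed 0 can be a failed estimate. Cox6b2, best known from testis, was an exception among the restricted paralogs: it had 313 FPKM in S15, 218 in S5, 50.9 in S12 and 1.36 in S6, and 8.25, 0, 0.202 and 111 in the pools.

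Cox7c and Atp5l show how near-identical copies touch these values. Cox7c, a small membrane subunit of complex IV (chromosome 13, 86044816 to 86046904), was found in 26 cells with a mean of 242 FPKM. Its 4 pseudogene copies together had a mean of 367 FPKM over cells, or 60.2% of the sum, and Gm12338, identical over the whole aligned coding sequence, alone had 254. In the 14 cells outside the sets with Cox7c above 1 FPKM and apart from S6, the copies held 58.7% to 75.9% of the sum. In S6, with only 1.05 FPKM of Cox7c, they held 90.4%, and in S23 to S28 they held 30.2% to 75.1%. In S18 to S22 the copies held 0 to 3.48%, and in P1 to P4 63.6%, 69.9%, 37.2% and 27.5%. Atp5l2, which the symbol rule counts in complex V, is annotated in GENCODE M21 as a processed pseudogene and is 99.4% identical to Atp5l over all 309 coding bases. It was 22.4% of the Atp5l level in S5 (357 against 1597 FPKM), 17.7% in S14 and 0.1005% in S22. Over all members, 52 pseudogene copies of 30 members took 6.33% to 18.3% of the summed FPKM of members and copies in the 17 cells outside the sets, 0.0217% to 0.779% in S18 to S22, 0.936% to 24.1% in S23 to S28, and 12.2%, 15.2%, 2.39% and 1.98% in P1 to P4. The libraries with low shares thus included P3 and P4 as well as S18 to S22. How reads were split between a gene and its copies is not given in the sources used here, so members with copies, among them Atp5g2, Atp5f1, Ndufb4 and Ndufa11, are uncertain.

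The summed members took a median of 1.37% of a cell's FPKM, and 2.76%, 1.75%, 1.89% and 2.97% in P1 to P4. The lowest cell was S28 at 0.269% and the highest S5 at 5.59%, followed by S22 at 3.44%, S11 at 3.16% and S21 at 2.93%. The pools fell inside the range of the cells, and 4 cells lay above P1. Within S5, complex V took 1.83%, complex I 1.58%, complex IV 1.25%, complex III 0.677% and complex II 0.246%. In some cells of the sets a few genes carried the sum. The top 3 members held 94.6% of it in S28 (Atp5b, Atp5a1 and Ndufa1), 94.5% in S20 (Cox6a1, Uqcrh and Atp5j2) and 88.9% in S19 (Ndufa4, Ndufa3 and Atp5k). In S21 to S24 they held 32.9% to 39.8%, which overlaps the cells outside the sets (14.1% in S12 to 38.6% in S1). In S5 the top 3 (Cox8a, Cox7b and Atp5g1) held 17.1% and in the pools they held 13.7% to 19.8%.

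**Figure D4:**
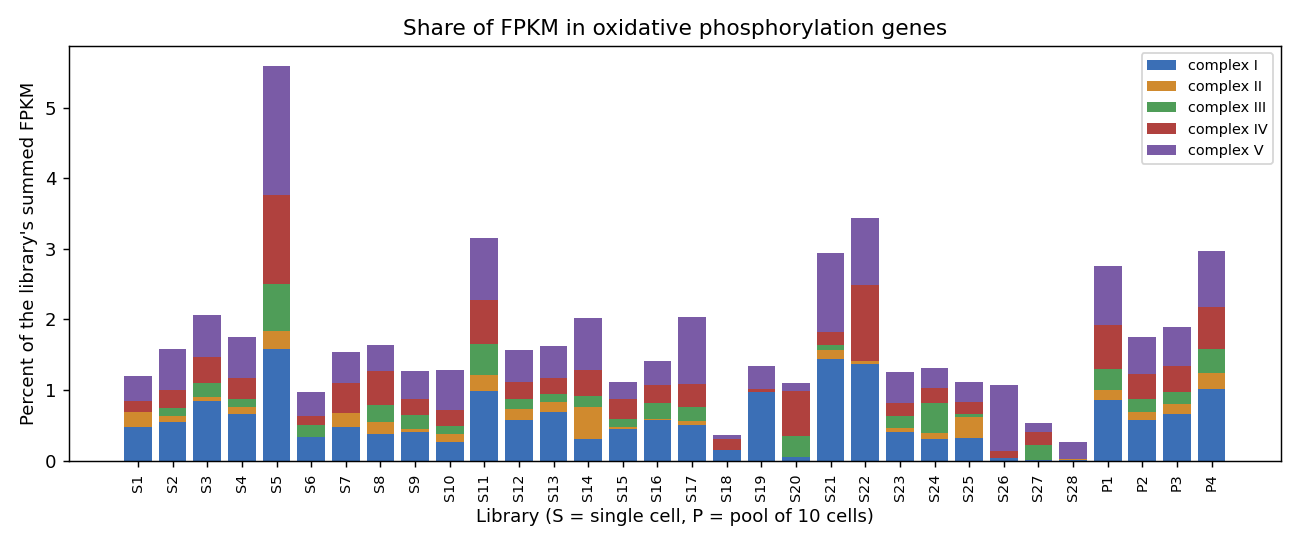
Summed FPKM of the members of each complex as a percent of the library's summed FPKM, stacked by complex, for S1 to S28 and P1 to P4. S5 stands highest at 5.59% and S28 lowest at 0.269%, and the 4 pools lie between 1.75% and 2.97%.

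S5, the cell led by choroid plexus markers (7 of 8 found), had the most complete set. It was the highest cell for 17 of the 80 members found in a cell, where S5 was the highest cell for 5.52% of all genes found in a cell. On the scale log2((FPKM of S5 + 1)/(mean FPKM of the other 27 cells + 1)), 56 of 81 members were at 1 or above and 3 at -1 or below, beside 16.8% and 36.7% of all genes. The largest differences were in Atp5g1 (2581 FPKM against a mean of 122), Cox7b (2633 against 129), Ndufb7 (767 against 39.5) and Ndufa11 (153 against 7.20). The 3 members lower in S5 were Ndufa4l2, Ndufa6 and Ndufs7. S5 also had the most genes found of any cell and stands for 1 cell, so that cell type, number of genes found and the single library cannot be told apart.

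By leading marker list, the 3 oligodendrocyte-led cells had a median of 72 members found, the 3 ependymal-led cells 61, the 2 astrocyte-led cells 43 and 67, the 8 endothelial-led cells 52 (19 to 64), the 7 neuroblast-led cells 42 (24 to 51) and the 3 microglia-led cells 34 (34 to 47). In percent of FPKM, the order differed: the astrocyte-led cells had 3.16% and 2.0%, the oligodendrocyte-led cells 1.57% to 1.75%, the endothelial-led cells 0.971% to 2.06%, the ependymal-led cells 1.12% to 1.28%, the microglia-led cells 0.360% to 1.33% and the neuroblast-led cells 0.269% to 3.44%. The range of the endothelial-led cells overlapped that of every other list with more than 1 cell. All microglia-led, cycling-led and neuroblast-led cells lie in the 2 sets, so marker list and set cannot be told apart there. Within the genes found in a cell, the median member stood at percentile 67.8 to 96.6 in the 17 cells outside the sets and 40.0 to 76.3 in the 11 cells of the sets.

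The members were set in the pools against the cells by the log2 ratio of their mean FPKM, with 1 added to each mean, a scale that understates differences of low genes. The median member was at 0.45, with 0.52, -0.032, -0.075 and 0.49 in P1 to P4, and 61 of 81 members were above 0, beside 54.2% of all 19781 genes. Scaling every library to the same upper quartile turned the median to -0.18, with 35 members higher and 46 lower, so the direction rests on the scaling. Without S18 to S28 the median was 0.16. At 1 or above were 12 of 81 members (14.8%), beside 12.9% of all genes, and at -1 or below 2 (2.47%), beside 13.9%. Among genes with a mean of at least 10 FPKM over cells, 8 of 76 members (10.5%) were at 1 or above, beside 6.19% of 7573 genes, and 2.63% at -1 or below, beside 26.1%. These counts also rest on the scaling and on the order of log and mean, with 17 members at 1 or above and 20 at -1 or below under the same upper quartile, 21 and 1 with the same summed FPKM, and 78 and 0 with the mean of logs. Without S18 to S28, 4 members were at 1 or above and 1 at -1 or below. The shares of all genes at these limits were not computed for the alternatives. The median over all genes moved too, from 0.064 to 0.95 with the mean of logs and 0.24 with the same summed FPKM. It was 0.015 under the same upper quartile and -0.063 without S18 to S28. Of the 12 members, 8 had a mean of at least 10 FPKM over cells, among them Ndufc1, Ndufa1, Ndufb9, Uqcr10 and Cox7b. Ndufc1 was the farthest of them, at 1.45, with 230, 304, 71.3 and 196 FPKM in the pools against a mean of 72.9 and a median of 1.44 over cells. Ndufa1, a small membrane subunit of complex I, was at 1.36 with 306, 185, 103 and 201 FPKM in the pools, against 76.9 over cells. The 2 members at -1 or below were Ndufa6 (-1.37) and Atp5g2 (-1.23). Ndufa6 was at 0.38 without S18 to S28 and Atp5g2 at -1.37.

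**Figure D5:**
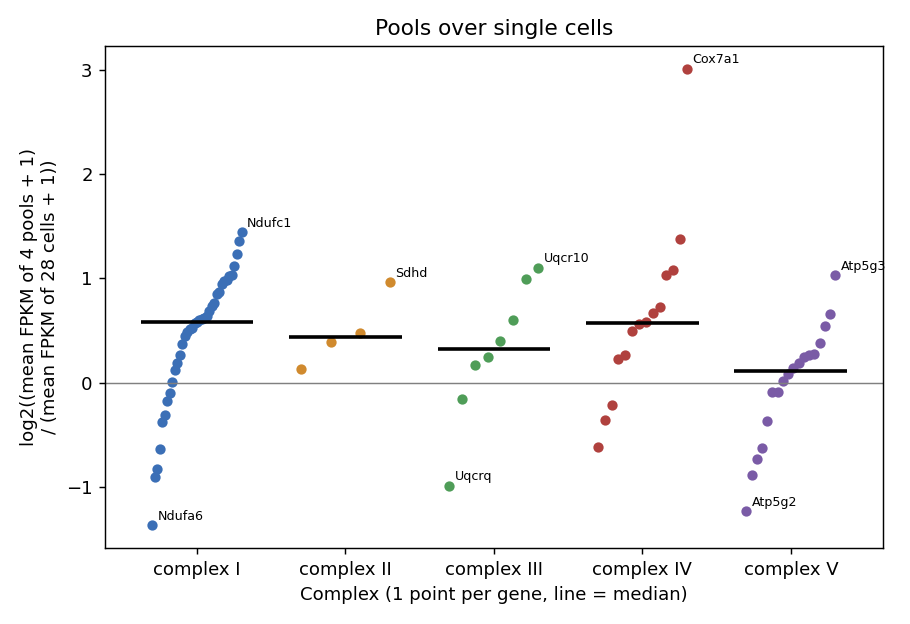
The log2 ratio of mean FPKM in the 4 pools to that in the 28 cells, 1 added to each, for each member found in a library, by complex, with the line at the median. Medians run from 0.11 in complex V to 0.58 in complex I, and Cox7a1 lies apart at 3.01, a gene found in 1 cell at 2.44 FPKM.

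By complex the median ratio was 0.58 for complex I (29 of 37 members above 0), 0.43 for complex II (4 of 4), 0.32 for complex III (6 of 8), 0.57 for complex IV (11 of 14) and 0.11 for complex V (11 of 18). Under the same upper quartile these were -0.21 for complex II, -0.083 for complex III and -0.85 for complex V, and complex V was also at -0.082 without S18 to S28. Without these 11 cells complexes I to IV were at 0.21, 0.13, 0.11 and 0.32. The values also moved with single pools: without P4 complex I was at 0.41, complex II at 0.28 and complex III at 0.053, without P1 complex IV was at 0.10 and complex V at -0.081, and without P3 complexes III, IV and V were at 0.57, 0.88 and 0.23. Without P2 complex V was at 0.22. With 10 cells in a library, a different share of each cell type and a different amount of RNA per cell cannot be told apart in the pools.

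The pools also differed among themselves. P1 and P4 had more of the choroid plexus list (mean log2(FPKM + 1) of 8.86 and 7.59, against 2.41 and 2.86 in P2 and P3, where endothelial markers led). The oligodendrocyte list had 8.84, 6.53, 1.33 and 9.36 in P1 to P4, so it was well above its P3 level in P2 too. P1 and P4 were both above P2 and P3 for 40 of 81 members, beside 18.8% of all genes, and both below them for 3, beside 17.4%. The 40 included Cox8a (1265 and 938 FPKM in P1 and P4, 425 and 157 in P2 and P3), Cox7b (888 and 750, against 98.2 and 62.2), Atp5g1 (575 and 297, against 89.9 and 45.7) and Ndufv3 (103 and 122, against 32.6 and 20.2). Ndufa4 and Ndufb11 were close in all 4 pools, at 489 to 633 and 306 to 390 FPKM. Cell make-up moved together with these values, and its part in them was not tested. Processed pseudogenes took 9.94%, 13.2%, 3.06% and 1.85% of FPKM in P1 to P4, which divides the pools in another way.

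Members varied together over cells to a small extent. For the 75 members found in at least 5 cells, the mean Spearman correlation over all pairs and 28 cells was 0.24. It was 0.12 for all 10711 genes with the same minimum of 5 cells, which were not matched for how often they were found. For the members it was 0.26 within complexes and 0.23 between them. Complex III had 0.36, complex II 0.31, complex I 0.27, complex V 0.20 and complex IV 0.16. Over the 17 cells outside the sets the value for the members was 0.17, beside 0.051 for 9059 genes, again not matched. The cells share library sets and number of genes found, and these values are a description. Of the pairs, Atp5l and its pseudogene Atp5l2 had the highest correlation at 0.93, Ndufb9 and Atp5o had 0.78 and Sdhb and Cox5b 0.77, while Ndufb3 and Cox6a1 had the lowest at -0.44.

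Other genes of the pathway were read in lists of companions. Among 12 other subunits and carriers, each was found in a cell and 68.8% of the values were at least 1 FPKM. Slc25a3, the phosphate carrier, was found in all 28 cells (mean 495 FPKM), and the adenine nucleotide carriers Slc25a5 and Slc25a4 had means of 278 and 221. Of 38 assembly factors, 37 were found in a cell, at only 25.6% of the values, and Cox15, needed for haem a, was found in none. The 3 with the highest means were Cox16 (207 FPKM, with 4184 in S18), Surf1 (69.5, with 1327 in S14) and Sco2 (66.1, with 826 in S1). Of the 12 regulators of mitochondrial biogenesis, 24.1% of the values were found. Ppargc1a, a coactivator of such genes, was found in 4 cells with 30.6 FPKM in S5, and Tfam, which packages mitochondrial DNA, in 2. Polrmt had 9130 FPKM in S20, Esrra 1284 in S28 and Nrf1 1084 in S23, with medians of 0.417, 0.259 and 0.151. In the pools over cells, 2 of 12 carriers and other subunits, 10 of 38 assembly factors and 1 of 12 regulators were at 1 or above, beside 12.9% of all genes, and 0, 3 and 4 at -1 or below, beside 13.9%. Of the 13 subunits encoded in mitochondrial DNA, 9 were listed at 0 in all 32 libraries (mt-Nd1, mt-Nd2, mt-Nd3, mt-Nd4l, mt-Nd5, mt-Cytb, mt-Co1, mt-Co2 and mt-Atp8). Every cell with mitochondria uses these genes, so these zeros show nothing about expression. The 4 with values were mt-Atp6 (found in 28 cells, median 109 FPKM), mt-Nd4, mt-Co3 and mt-Nd6. A comparison of nuclear with mitochondrial transcripts was therefore not made.

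Promoters of 66 of the 84 members were in the RefSeq table of GRCm38.p6, each 300 bases long, and 4 letter strings were searched on both strands. The full NRF1 motif, whose letters are the capitals in Atp5g2, was in 5 (7.58%) of the members' promoters and 0.977% of all 27025. Its shorter form GCATGCGC, which overlaps the first, was in 10 (15.2%) and 2.80%. CCGGAAG, of the ETS factors that include GABPA, was in 15 (22.7%) and 9.12%. AAGATGGCG, of YY1, was in 6 (9.09%) and 1.49%. The 5 members with the full NRF1 motif were Atp5g2, Atp5k, Cox6a1, Ndufa11 and Uqcrc1, which were found in 22, 16, 25, 10 and 14 cells. A match describes letters in the window and is not a site.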

How the data were processed

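RNA was profiled in 28 single cells and 4 pools of 10 cells. Per the submitters' processing notes, TopHat 1.41, Cufflinks 2.02 and build mm9 were used, and the authors deposited 1 table of FPKM per gene. Gene IDs of GENCODE M21 were on 96.0% of its 39011 lines, and the loci of all 84 members overlapped the GRCm38 gene, so coordinates are GRCm38. Read layout, strand and depth were not given in the sources used here.

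Rows with the same symbol were added. Found meant FPKM of at least 1. Ratios used a pseudocount of 1, and a gene was counted as apart at a log2 ratio of at least 1 or at most -1. Cell types were read from the marker list with the highest mean log2(FPKM + 1). Copies were GENCODE pseudogenes aligned by BLAST to a member's coding sequence at 90% identity or more over at least 50% of it. RefSeq promoters were of GRCm38.p6. Scripts used Python 3.11.15, pandas 2.3.3 and SciPy 1.17.1, and the computations were tested on simulated data. No count model was used, and no test between cells, or between cells and pools, was made because the labels name no animal. Dixon's test was run over the 4 pools to find a pool far from the others. No doublet was removed. Values of 1 member are not reported here.

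The members and lists were chosen with earlier results of these data known. Genes were named by rule: the 4 most abundant members of each complex, those found in no cell or in all, the 5 largest and 5 smallest ratios with all pools on one side, isoform groups, and from each companion list the 3 most abundant and those found in no cell. Other genes were named after their values were seen. Alternatives were the threshold for found, the pseudocount, a filter on low values, the order of log and mean, the scaling, leaving out each pool or S18 to S28, and a limit that put values under 2% of a gene's highest value in a set at 0.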

Additional observations from a re-analysis of the deposited data

Results flagged for a closer look

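For 7 of 48 measures compared over the 4 pools, 1 pool lay far from the other 3 (Dixon's test of the gap to the nearest value). The limit used is passed in about 1 in 20 by chance if values are independent and normally distributed. The measures share the same 4 pools, and Cox8b and Cox4i2 lay at or near 0 in P2 to P4. The 7 of 48 can therefore not be set against that rate. P4 was high for Ndufb8 (394 FPKM, against 141.5, 110.9 and 130.3 in P1 to P3), an accessory subunit of complex I, for Sdhc (712, against 431, 464 and 446), a membrane anchor of complex II, and for Cox6b2 (111, against 8.25, 0 and 0.202). P1 was high for Sdhd (52.2, against 17.2, 18.3 and 20.4), for Cox8b (4.97, against 0, 0 and 0.353) and for Cox4i2 (6.26, against 0.147, 0 and 0). P3 was high for Ndufa5 (338, against 180.3, 197.1 and 174.9). The pools differ in their leading markers, and the part of this in these values was not tested.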

How the results depend on the processing

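Of the values recomputed under an alternative, 88 changed by less than the SD over cells or pools, 18 by more and 6 changed sign. For the mean correlation a small fixed limit took the place of the SD. The SD of members found was 15.9 over cells, so medians of 35 to 61 counted as unchanged beside 47.5. The median ratio of the members (0.45) was 3.07 with the mean of logs and -0.18 with the same upper quartile, and 0.28 to 0.54 with each pool left out. The median over all genes (0.064) was 0.95 with the mean of logs. The upper quartile also turned complex II to -0.21, III to -0.083 and V to -0.85, and complex V was at -0.082 without S18 to S28, and ran from -0.081 without P1 to 0.23 without P3. With the 100 most abundant genes left out of the sum, the members' share was 2.91% in cells and 3.74% in pools, and with each pool left out the pools' mean (2.34%) was 2.13% to 2.54%. The mean pairwise correlation (0.24) was 0.17 in the 17 cells outside the sets, 0.35 with the 2% limit and 0.16 with ranks. The median of the microglia-led cells, in mean log2(FPKM + 1) of members minus the median of all cells (-1.93), was -2.80 with the 2% limit, and that of the oligodendrocyte-led cells (2.30) was 3.34 with a pseudocount of 0.1. The cause was not tested.

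No paired analysis was possible because no groups were compared by a test and the numbers only name libraries. The cells are 1 sample from an unknown number of animals, depth is unknown, and 1 cell per type or a few limits each statement on cell types. Listed zeros can be failed estimates.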
